A study of Pongo abelii with 6 samples.

Results

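Of 1403 small nuclear RNA (snRNA) genes with values in RNA-seq libraries of 2 orangutan stem cell lines, 228 averaged at least 5 TPM over the 6 libraries and are described here. TPM is a level corrected for length and given as a share of a library. The members were chosen by their mean TPM over the 6 libraries, so their abundance is a description and not a result. Another 1175 snRNA genes stood below the minimum, 607 of them listed at 0 in every library.

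The libraries came from induced pluripotent stem cells, body cells set back to an embryo-like state, of Pongo abelii, the Sumatran orangutan. The line Djasinga had 3 libraries and the line Dokana 3, made from total RNA depleted of ribosomal RNA. Both lines were grown alike, in iPS-Brew with IWR1 (1 µM) and CHIR (0.5 µM) on a Matrigel coating, and no further treatment or genetic change separates them in the protocols. The treatment label calls the cells differentiated and the genotype label names small RNA, which the titles and protocols do not.

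The 3 libraries of a line are sequential passages of 1 culture, called technical replicates in the design text and biological ones in the titles. Each line stands for 1 culture, so SDs and p-values below measure the spread between passages and not between animals. Of 12 pluripotency markers 8 were paired with a symbol, and they summed to 321 to 396 TPM in Djasinga and 454 to 571 TPM in Dokana. The 10 of 12 paired fibroblast markers, of which FAP was at 0 in every library, summed to 6.95 to 8.67 TPM in Djasinga and 9.50 to 10.6 TPM in Dokana, and the 12 early differentiation markers to 1.81 to 4.01 and 2.59 to 3.01 TPM. The part of these marker levels in the snRNA values was not tested.

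As background, snRNAs are short RNAs without a poly(A) tail that work with proteins as small ribonucleoprotein particles (snRNPs). U1 pairs with the start of an intron, U2 with the branch point, and U4, U5 and U6 join them as a further particle before splicing takes place. A minor spliceosome with its own snRNAs removes a rare class of introns, U7 acts on histone transcripts, and 7SK holds back a transcription elongation factor. Primate genomes carry several functional copies of most of these genes and many derived copies and pseudogenes. The table that paired accessions with genes gave a class and a length but no type for these genes, so no member is called U1, U2 or otherwise here. The members were therefore ordered by their annotated length, a choice made after their values were seen.

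All 228 members carried a LOC symbol and 1 transcript each, and they fell into 5 length classes. There were 17 members of 161 to 167 bases, 6 of 185 to 198, 15 of 115 to 150, 152 of 102 to 112 and 38 of 60 to 65 bases. For 172 members the accession matched the gene table with its version, and for the others the length is that of another version of the same record.

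A few genes held most of the members' signal. The 6 highest of the 15205 genes paired with a symbol were all 164-base members with the same value in each library. They were LOC112128908, LOC112128919, LOC112131487, LOC112131516, LOC112131612 and LOC112131646. Transcripts paired with a symbol held only 11.9% to 13.8% of all TPM in Djasinga and 15.1% to 17.6% in Dokana, and unpaired transcripts were not ranked. Djasinga replicates 1, 2 and 3 gave each of them 5477, 4616 and 3485 TPM, and the Dokana replicates gave 8451, 7213 and 5286 TPM. Djasinga replicate 1 lay above Dokana replicate 3, so the lines overlapped. The mean was 4526 ± 999 TPM in Djasinga and 6983 ± 1595 TPM in Dokana (SD, n = 3 each), and the difference did not pass the threshold of 0.05 (log2 -0.62, SE 0.25, limma adjusted p 0.334). Genes of equal value and length cannot be told apart by these values, and the sources used here do not say how reads that fit several copies were shared. The level of any single one of the 6 is thus uncertain.

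Together the 6 held 76.3%, 72.4% and 69.4% of the summed TPM of all members in the Djasinga libraries, against 83.6%, 84.1% and 75.3% in the Dokana libraries. The next gene, LOC112129838 (191 bases), had 4380, 4421 and 3062 TPM in Djasinga and 5248, 4568 and 4924 TPM in Dokana. As deposited, every Djasinga library lay below every Dokana library, but the difference was not called (log2 -0.33, SE 0.20, limma adjusted p 0.396). With it, 7 genes held 79.5% to 86.4% of the member sum in Djasinga and 86.9% to 92.9% in Dokana. Below them only 9 members averaged at least 100 TPM, so that 16 reached that level, 50 reached 20 TPM and 178 lay between 5 and 20 TPM.

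**Figure D1:**
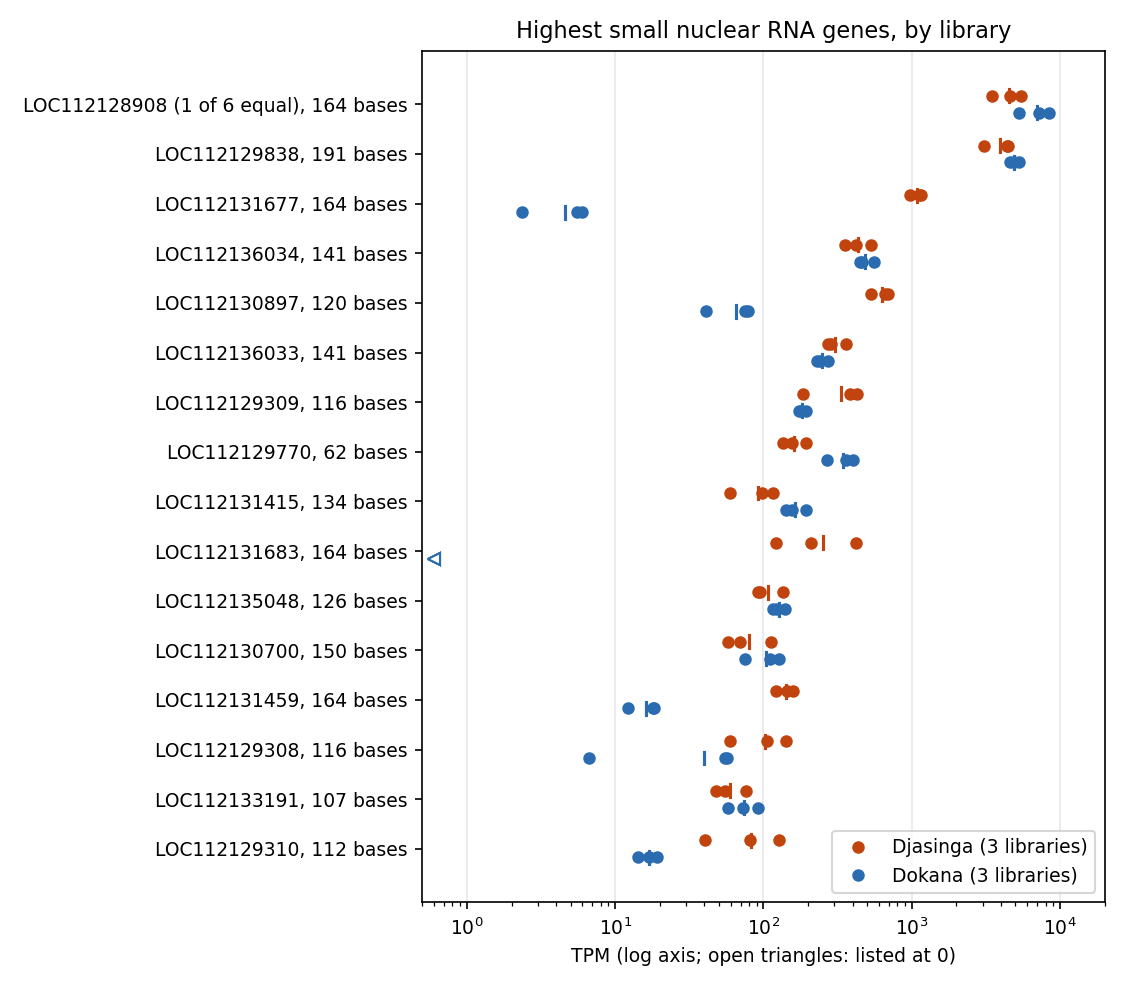
TPM (log axis) of the 16 members with the highest distinct values in each of 3 Djasinga and 3 Dokana libraries, where dots are libraries, short lines are line means and the open triangle marks the Dokana libraries listed at 0. LOC112131677, LOC112131683, LOC112131459 and LOC112130897 stand far to the right in Djasinga, while most others lie close together in both lines.

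The lines were then compared gene by gene. Of 6255 genes tested, 22 passed the threshold (0.352%), 11 higher in Djasinga (0.176%) and 11 lower (0.176%). With the replicate number, which the labels give as a batch, as a block in the limma fit, 5 genes passed, 4 higher and 1 lower. Of the 228 members 227 were tested and 4 passed, all higher in Djasinga (1.76% of those tested). The same 4 were called with the block. One of the 4, LOC112131683, entered the test through its Djasinga libraries alone and so had to differ. LOC112131677 averaged 4.61 TPM in Dokana, so it too passed the minimum of 5 TPM for members only through its Djasinga libraries. The share of called members is therefore a description and no test. The single untested member, LOC112130265 (107 bases), stood at 0 TPM in all 3 Djasinga libraries and at 35.1, 8.36 and 0 TPM in Dokana.

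LOC112131677, a 164-base gene, showed the widest gap of the members with a signal in both lines. Its levels were 1157, 1118 and 971 TPM in the Djasinga libraries, against 5.49, 6.01 and 2.34 TPM in Dokana. All Djasinga libraries were high and close to each other, and all Dokana libraries were near the bottom of the members (log2 7.66, SE 0.30, limma adjusted p 0.000180). In units of the lowest value above 0 of any 164-base snRNA gene in the same library, it stood at 1397, 1395 and 791 in Djasinga and at 7.01, 8.06 and 2.31 in Dokana. It made up 3.38% to 4.33% of the TPM of the 164-base members in Djasinga and 0.00738% to 0.0139% in Dokana.

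LOC112131683, also of 164 bases, stood at 122, 209 and 420 TPM in the Djasinga libraries and was listed at 0 in all 3 Dokana libraries. The Djasinga libraries spread more widely here than for the other called genes, with replicate 3 the highest. The call passed at a limma adjusted p of 0.000627, and no fold is given against a line at 0. The lowest value above 0 of a 164-base snRNA gene in a library was 0.746 to 1.23 TPM.

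LOC112131459, the third called gene of 164 bases, had 145, 159 and 122 TPM in Djasinga and 18.2, 18.1 and 12.3 TPM in Dokana. Unlike the other two it was well above the lowest values in both lines, with every Djasinga library above every Dokana library (log2 3.07, SE 0.21, limma adjusted p 0.00248). The only other 164-base member, LOC112128669, averaged 6.70 TPM, had 3.31, 2.40 and 12.3 TPM in Djasinga and 8.62, 4.47 and 9.12 TPM in Dokana, and the lines overlapped.

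The 3 called genes of this length lay near genes of the equal-valued group in the gene table's order. LOC112131683 had 3 genes between it and LOC112131487, LOC112131677 had 3 between it and LOC112131646, and LOC112131459 had 4 between it and LOC112131612. LOC112131487 and LOC112131516 were direct neighbours, as were LOC112128908 and LOC112128919. Summed without the 6, the 164-base members reached 1427, 1488 and 1526 TPM in Djasinga and 32.3, 28.5 and 23.7 TPM in Dokana, while the 6 themselves were lower in Djasinga on average. How alike these genes are in sequence is not known here, nor how reads that fit several of them were shared. The level of each gene is thus uncertain, and a shift of reads between them was not tested. The 3 called genes made up 4.15% to 6.75% of the 164-base sum in Djasinga and 0.0461% to 0.0556% in Dokana.

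LOC112130897, a 120-base gene, was the called member of another length. It had 686, 657 and 532 TPM in Djasinga, against 74.8, 41.1 and 78.5 TPM in Dokana. The lowest Djasinga library was far above the highest Dokana library (log2 3.30, SE 0.28, limma adjusted p 0.00743). None of the 4 called members matched the gene table with its accession version, so a fit limited to full matches does not hold them. With median-ratio scaling and the replicate block together, LOC112131677 alone was still called, and the other 3 missed the threshold (limma adjusted p 0.0617 each; 8.5e-08 to 0.0617 for LOC112130897, 1.1e-09 to 0.0617 for LOC112131683 and 3.6e-06 to 0.0617 for LOC112131459 over 19 alternatives).

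**Figure D2:**
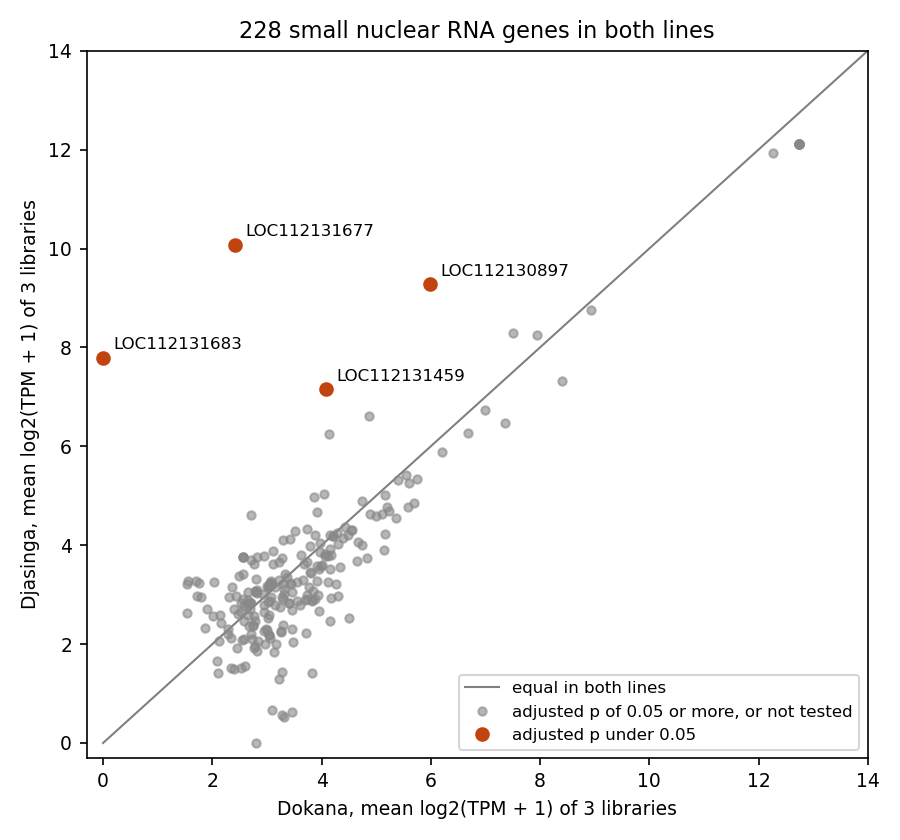
Mean log2(TPM + 1) of each of the 228 members over 3 Djasinga libraries (vertical axis) against the mean over 3 Dokana libraries (horizontal axis), with a line of equal values and the 4 members with an adjusted p under 0.05 in colour. The 4 called members stand above the line and apart from the rest, which scatter around it and more widely at low levels.

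The other members of 112 to 120 bases also stood higher in Djasinga in sum, but none of them was called in the main test. LOC112129309 (116 bases) had 386, 424 and 184 TPM in Djasinga and 193, 179 and 174 TPM in Dokana, so that Djasinga replicate 3 fell within the Dokana range (limma adjusted p 0.336). LOC112129308, of the same length and with 1 gene between the pair in the gene table, had 59.9, 106 and 143 TPM in Djasinga and 56.5, 6.68 and 55.3 TPM in Dokana, with no overlap but a wide spread. LOC112129310 (112 bases) had 81.5, 40.4 and 127 TPM in Djasinga and 14.3, 16.9 and 19.3 TPM in Dokana, again with no overlap (log2 2.10, SE 0.39, limma adjusted p 0.147).

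In contrast, LOC112133226 (112 bases) stood at 25.9, 31.1 and 37.8 TPM in Djasinga and 33.6, 33.1 and 38.2 TPM in Dokana. The 9 members of 112 to 120 bases summed to 1316, 1358 and 1113 TPM in Djasinga, against 432, 305 and 444 TPM in Dokana. Without LOC112130897 the sums were 630, 701 and 581 TPM in Djasinga and 357, 264 and 365 TPM in Dokana, still with no overlap. These sums were taken over members chosen after their values were seen and carry no test.

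Among the 141-base members the lines had nearly the same sum of TPM as deposited, but a different split. LOC112136034 had 355, 533 and 422 TPM in Djasinga and 557, 446 and 459 TPM in Dokana, and LOC112136033, with 1 gene between the pair in the table, had 273, 360 and 284 TPM in Djasinga and 273, 228 and 240 TPM in Dokana. Neither was called, and the values of both overlapped between the lines. The 4 members of this length summed to 753 ± 136 TPM in Djasinga and 750 ± 79.8 TPM in Dokana (SD, n = 3 each). The share of LOC112136034 in that sum was 55.6%, 59.0% and 58.8% in Djasinga, below the 66.3%, 64.8% and 63.5% in Dokana, a difference that was not tested.

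Other abundant members between 120 and 150 bases gave no call. LOC112131415 (134 bases) had 116, 98.2 and 59.5 TPM in Djasinga and 194, 156 and 142 TPM in Dokana, with every Djasinga library below every Dokana library (limma adjusted p 0.315). LOC112135048 (126 bases) had 135, 94.4 and 91.8 TPM in Djasinga and 140, 123 and 116 TPM in Dokana. LOC112130700 (150 bases) had 57.7, 112 and 68.9 TPM in Djasinga and 127, 75.1 and 111 TPM in Dokana. The lines overlapped for both of these genes.

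The 38 members of 60 to 65 bases had a lower sum in Djasinga. LOC112129770 (62 bases), by far the highest of them, had 135, 155 and 194 TPM in Djasinga and 357, 268 and 400 TPM in Dokana. Every Djasinga library was below every Dokana library, but the difference was not called (log2 -1.08, limma adjusted p 0.180). The class summed to 383, 479 and 598 TPM in Djasinga and 869, 632 and 1191 TPM in Dokana. The log2 ratio of the class means was -0.88 as deposited and -0.49 with median-ratio scaling. Whether the scaled libraries overlap was not tested. Without LOC112129770 the remaining 37 members summed to 248, 324 and 404 TPM in Djasinga and 512, 364 and 791 TPM in Dokana, and the lines then overlapped. Of the 38, 0 passed the limma threshold. At an unadjusted p under 0.05, 7 were lower and 0 higher, beside 13.9% lower and 0.895% higher over all genes tested, so the count alone does not set the class apart.

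The largest class, 152 members of 102 to 112 bases, was made of low genes. Its highest member, LOC112133191 (107 bases), had 76.2, 54.7 and 47.6 TPM in Djasinga and 72.9, 58.0 and 92.0 TPM in Dokana, and the median member averaged 9.0 TPM. LOC112129310, given above, followed at a mean of 49.8 TPM over both lines, without overlap. LOC112131042, LOC112132129 and LOC112133960 came next, at means of 47.0, 45.2 and 44.6 TPM, and each overlapped between the lines. LOC112130040 (106 bases) had 18, 34.9 and 29.2 TPM in Djasinga and 43.2, 46.6 and 51.5 TPM in Dokana, with no overlap (limma adjusted p 0.315). LOC112129858, LOC112130258 and LOC112136044, all of 107 bases, again shared 1 value in each library, which makes the level of any one of them uncertain. Of 151 tested in the class 0 passed the limma threshold. At an unadjusted p under 0.05, 3 were higher and 14 lower, a share of lower genes under the 13.9% over all genes tested.

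By class, the sums moved in different directions. Members of 161 to 167 bases reached 34343, 29278 and 22509 TPM in Djasinga and 50820, 43368 and 31837 TPM in Dokana, and the lines overlapped. Members of 185 to 198 bases reached 4447, 4484 and 3120 TPM in Djasinga and 5311, 4625 and 5019 TPM in Dokana, mostly LOC112129838, and the sign of this difference turned with median-ratio scaling (log2 -0.31 as deposited, 0.018 scaled). Members of 115 to 150 bases reached 2150, 2479 and 1850 TPM in Djasinga and 1686, 1314 and 1494 TPM in Dokana, the only class higher in every Djasinga library. That rested on LOC112130897, a gene singled out by its own difference in these values. The other 14 members of the class summed to 1463, 1822 and 1318 TPM in Djasinga and 1611, 1273 and 1415 TPM in Dokana, with overlap. Members of 102 to 112 bases reached 1766, 1556 and 2062 TPM in Djasinga and 1938, 1552 and 2600 TPM in Dokana, with overlap and with a sign that turned in the same way (log2 -0.18 and 0.19).

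All 228 members summed to 43088, 38277 and 30139 TPM in Djasinga and 60625, 51492 and 42140 TPM in Dokana, which is 3.01% to 4.31% and 4.21% to 6.06% of all TPM. A single unnamed assembled transcript took 26.7% to 42.4% of the TPM in Djasinga and 16.9% to 28.2% in Dokana, which lowers every other share. With snRNA genes, small nucleolar RNA (snoRNA) genes and that transcript taken out of the total, the member sums were 64223, 67585 and 57276 in Djasinga and 81025, 79616 and 58260 in Dokana. The mean difference between the lines was log2 -0.47 as deposited and -0.21 after this rescaling. The snoRNA genes, another class of short nuclear RNAs, summed to 18407, 17653 and 19243 TPM in Djasinga and 21409, 18789 and 27091 TPM in Dokana as deposited. In bulk samples, fewer cells with an RNA and less RNA per cell cannot be told apart.

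**Figure D3:**
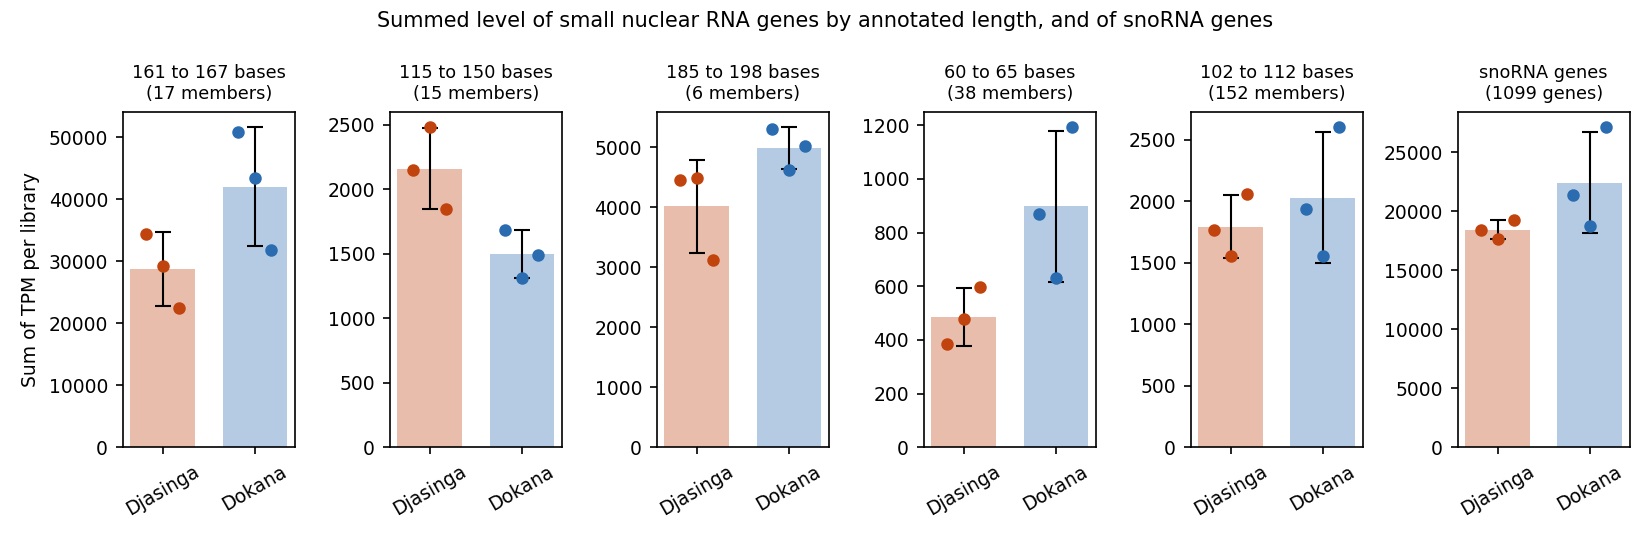
Sum of TPM per library over the members of each annotated length class and over the 1099 snoRNA genes, with bars for the mean of 3 Djasinga and 3 Dokana libraries, error bars for the SD and dots for libraries. The class of 115 to 150 bases, which holds LOC112130897, has all Djasinga libraries above all Dokana libraries. The classes of 60 to 65 and 185 to 198 bases have them all below in TPM as deposited. With median-ratio scaling the difference of the 60-to-65-base class shrinks, and that of the 185-to-198-base class turns its sign.

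Below the 7 highest genes, the sum of the better-expressed members was set apart by the 4 called genes. The 43 others with a mean of at least 20 TPM summed to 4375, 4831 and 4565 TPM in Djasinga and 2973, 2339 and 3136 TPM in Dokana. The 4 called genes made up 2110, 2142 and 2045 TPM of it in Djasinga and 98.5, 65.2 and 93.1 TPM in Dokana. Without them the remaining 39 summed to 2265, 2689 and 2520 TPM in Djasinga and 2874, 2274 and 3043 TPM in Dokana, which overlapped and was lower in Djasinga on average (log2 -0.13). The 4 were picked by these same values, so taking them out had to lower the Djasinga sum against that of Dokana. The 178 members of 5 to 20 TPM summed to 1471, 1329 and 1604 TPM in Djasinga and 1700, 1306 and 2365 TPM in Dokana, and overlapped.

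Over all tested members the median difference was log2 -0.26, beside -0.29 over all 6255 genes tested, close to each other. With median-ratio scaling the medians were 0.07 for members and -0.02 for all genes. At an unadjusted p under 0.05, 8 members were higher (3.52%) and 29 lower (12.8%) in Djasinga, beside 0.895% and 13.9% of all genes tested. Of the tested members 10 had all Djasinga libraries above all Dokana libraries (4.41%) and 19 had them all below (8.37%), beside 1.18% and 24.5% of all genes. Among snRNA genes below the minimum 6 of 278 tested were called (2.16%), 2 higher in Djasinga (0.719%) and 4 lower (1.44%), and among snoRNA genes 5 of 530 (0.943%).

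These 6 called snRNA genes below the minimum were listed at 0 in all 3 libraries of one line. LOC112130380 and LOC112135882 were higher in Djasinga, and LOC112130445, LOC112135002, LOC112135312 and LOC112135564 were lower. They entered the test through the other line alone and so had to differ, and their share is no measure to set beside the members' share. LOC112130380 had 2.00, 1.84 and 2.65 TPM in Djasinga and 0 in Dokana, and LOC112135564 had 0 in Djasinga and 1.87, 1.74 and 2.37 TPM in Dokana. The 4 called members, in contrast, reached at least 122 TPM in every Djasinga library.

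Low values at some lengths formed a ladder. Among snRNA genes of 62, 102, 104, 105 and 107 bases, most low values were whole multiples of 1 step per length and library. Only lengths were kept that had, in every library, at least 20 genes above 0 and a value shared by at least 4 genes and 10% of them. The lowest such value was the step, so these lengths were chosen for showing one. For 107 bases the step was 1.96, 1.82 and 2.65 TPM in Djasinga and 1.87, 1.76 and 2.42 TPM in Dokana. Of 1501 values under 10 steps, 87.9% were whole multiples within 0.02 of a step, which by definition includes the genes at the step itself. Of 128 members of these lengths, 80 averaged under 5 steps, 116 under 10 and only 5 at least 20. Of the called genes below the minimum, LOC112130445 (107 bases) stood at 1 step in every Dokana library. LOC112130380 stood at 1 step in every Djasinga library, but its length of 106 bases is not among those kept. The 164-base length did not meet these conditions in every library.

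**Figure D4:**
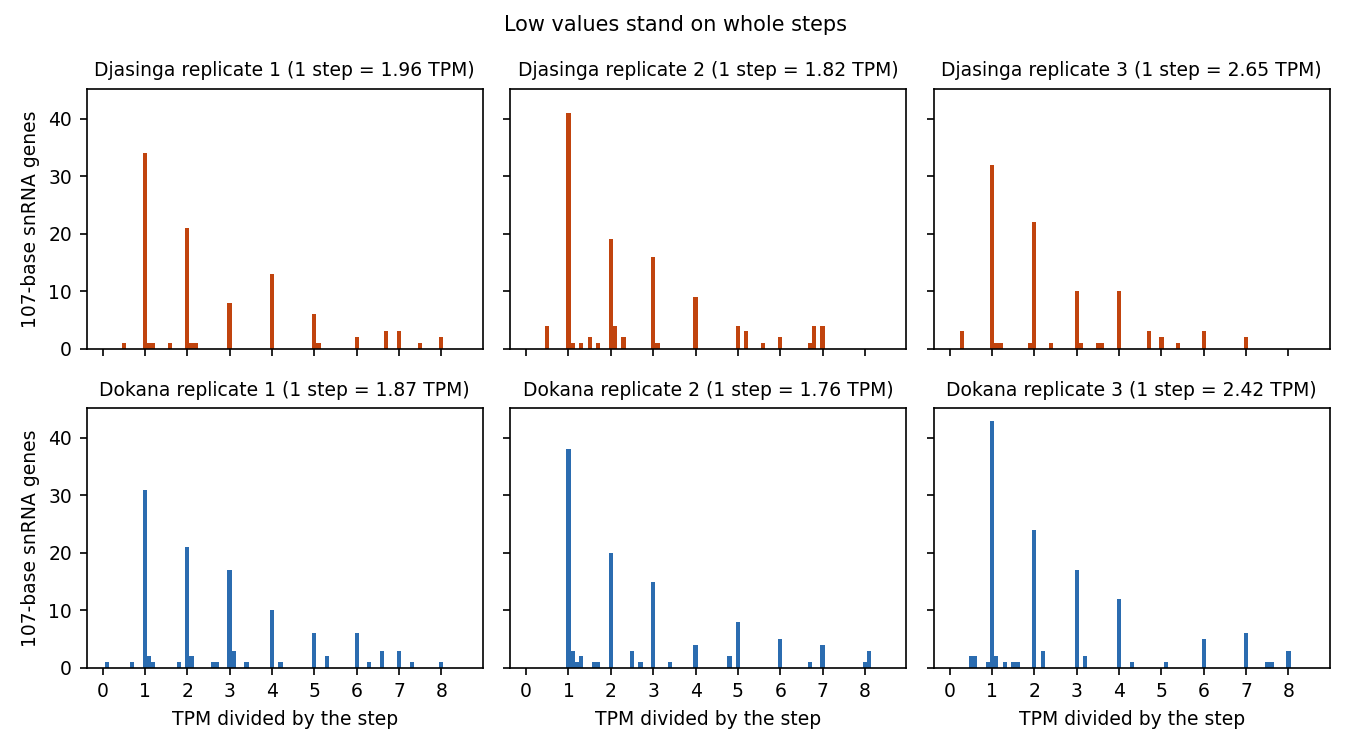
Number of 107-base snRNA genes (vertical axis) by TPM divided by the step of the library (horizontal axis, low values only), with 3 Djasinga libraries above and 3 Dokana libraries below. Most values gather at 1, 2, 3 and further whole steps in each library. Of values under 10 steps, 76.0% (Djasinga replicate 2) to 88.3% (Djasinga replicate 1) were whole multiples, and the others lay between.

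The spread between libraries of a line was wider for members of low level, and its relation to the steps was not tested. The median SD within a line, on the log2(TPM + 1) scale, was 0.85 for members of 5 to 20 TPM, 0.43 for the 50 members of at least 20 TPM and 0.34 for the 16 of at least 100 TPM. Protein-coding genes of 5 to 20 TPM had 0.25, and those of at least 20 TPM also had 0.25. Of the 228 members 48 were listed at 0 in at least 1 library. By line means, 18 members reached 5 TPM in Djasinga but not in Dokana, 39 in Dokana but not in Djasinga, and 171 in both.

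The minimum of 5 TPM fell among the low values. LOC112131141 (61 bases, mean 5.01 TPM) and LOC112130994 (103 bases, 5.0 TPM) were just inside it, and LOC112128694 (107 bases, 4.99 TPM) and LOC112133550 (110 bases, 4.95 TPM) just outside. LOC112131141 had 0, 2.28 and 0 TPM in Djasinga and 13.4, 4.95 and 9.42 TPM in Dokana. LOC112128694 had 13.7, 1.82 and 2.65 TPM in Djasinga and 9.35, 0 and 2.42 TPM in Dokana. The member sum was 96.7% to 98.4% of the sum of all snRNA genes in every library.

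Position differed with abundance. By the gene annotation, 187 of the 228 members (82.0%) lay inside the span of another gene, 180 of them inside a protein-coding gene. Of the 20 highest members 7 did so (35%), of the 50 members of at least 20 TPM 34 (68.0%), and of the 178 members of 5 to 20 TPM 153 (86.0%). Reads of a host gene's introns and of a nested snRNA gene cannot be told apart in these values where both lie on the same strand or where strand was not used. The strands of members and host genes were not compared. Whether strand was used is not stated in the sources at hand. LOC112131683 lay inside a protein-coding gene, and LOC112131677, LOC112131459 and LOC112130897 lay inside no other gene.

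Proteins that make and carry snRNAs gave no call. Of 126 listed genes for snRNP proteins and for snRNA transcription, processing and assembly, 54 were paired with a symbol and 50 were tested. With limma 0 passed the threshold, and the smallest adjusted p was 0.283. At an unadjusted p under 0.05, 0 were higher and 10 lower, beside 0.895% and 13.9% of all genes tested. Their median difference was log2 -0.35, beside -0.29 over all genes tested.

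In the Sm and LSm ring, the protein ring around most snRNAs, 4 of 15 genes were paired. SNRPG, a subunit of the Sm ring, had 46.2, 66.5 and 72.6 TPM in Djasinga and 98.1, 70.0 and 119 TPM in Dokana, and SNRPE, another subunit, averaged 11.9 ± 1.07 TPM in Djasinga and 16 ± 3.21 TPM in Dokana (SD, n = 3 each). SNRPA, a U1 particle protein, averaged 25.0 ± 5.87 TPM in Djasinga and 31.4 ± 1.91 TPM in Dokana. SF3B2, of the U2 particle, averaged 31.5 ± 2.31 and 43.2 ± 7.36 TPM, in the same order of lines. Each was lower in Djasinga on average and none passed the threshold.

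SNRNP200, the helicase that unwinds U4 from U6, averaged 34.4 ± 3.64 TPM in Djasinga and 44.7 ± 10.3 TPM in Dokana, and PPIH, a cyclophilin bound to the U4/U6 particle, 31.9 ± 2.47 and 44.3 ± 5.33 TPM. Of the minor spliceosome, SNRNP48 averaged 6.23 ± 1.67 TPM in Djasinga and 10.7 ± 1.42 TPM in Dokana, and RNPC3 3.30 ± 0.625 and 4.72 ± 1.58 TPM. Of the 5 genes of the U4/U6 and U5 list and 6 of the minor list that were tested, 0 were called.

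For transcription of snRNA genes, SNAPC3 and SNAPC2, subunits of the complex that binds their promoters, averaged 8.5 ± 0.358 and 9.03 ± 1.46 TPM in Djasinga, against 13.6 ± 2.53 and 12.1 ± 1.69 TPM in Dokana. INTS11, the enzyme of the Integrator complex that cuts the end of snRNA transcripts, averaged 14.8 ± 1.86 TPM in Djasinga and 21.9 ± 3.88 TPM in Dokana. INTS13, another Integrator subunit, averaged 8.45 ± 1.08 and 13.9 ± 2.09 TPM. Of 10 tested genes of this list 0 were called and 3 were lower at an unadjusted p under 0.05 (limma), beside 13.9% of all genes tested.

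KPNB1, an importin that carries assembled snRNPs to the nucleus, averaged 98.5 ± 9.61 TPM in Djasinga and 132 ± 31.3 TPM in Dokana. WDR77, part of the complex that methylates Sm proteins, averaged 17.1 ± 5.91 and 19.7 ± 5.35 TPM. FBL, the methyltransferase fibrillarin, averaged 121 ± 5.92 TPM in Djasinga and 146 ± 18.2 TPM in Dokana, and PCIF1, which methylates the cap-adjacent base of messenger RNAs, 6.89 ± 1.67 and 8.94 ± 1.21 TPM. None of these 4 genes passed the threshold.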

How the data were processed

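TPM per transcript was deposited by the authors for 58409 transcripts in 3 Djasinga and 3 Dokana libraries, per the file headers. Trimmomatic 0.39, FastQC 0.11.9, STAR and StringTie are named without roles, per the submitters' processing notes. The sources used here name neither the quantifier nor its strand setting nor the genome build. Read depth is unknown, since TPM does not hold it, and no counting intervals are given.

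Of 43705 RefSeq transcripts, 22113 (50.6%) were paired by accession without version (3321 with it) with RefSeq genes (assembly NHGRI_mPonAbe1-v2.0). These gave names, classes, lengths and positions. The positions served for neighbours and nesting and are not printed here. TPM was summed over the transcripts of 15205 genes. The table has no descriptions, so the planned grouping by snRNA type was replaced by annotated length. No RNA sequence was given for these genes, and none is shown.

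The main test was limma-trend 3.58.1 (R 4.3.3) on log2(TPM + 1), Djasinga minus Dokana, for genes that reached 1 TPM in at least 3 libraries. P-values were adjusted over all these genes (Benjamini-Hochberg), and 0.05 was the threshold. Changes on this scale understate those of low genes. Sums carry no test. Replicate numbers are given under a batch tag in the labels and were taken to pair the lines, while deviations of same-numbered libraries correlated by -0.0930, -0.130 and 0.152 over genes. Tested on simulated data of 6255 genes, the fit recovered 32%, 88%, 98% and 100% of 50 genes changed by 1, 2, 3 and 4 on the log2 scale, with 8 of 167 calls false and 0 calls without change. Changes were set only in genes above a minimum mean level, with normal noise that does not follow the ladder of steps. Recovery for members on that ladder was thus not tested.

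Members and lists were chosen with earlier results of these data known. Named are called members, the highest members, those next to the minimum and, per list, the 2 highest genes. Members named by length were chosen after their values were seen. Alternatives covered the block, each library, scaling, the pseudocount, filters, limma settings, accession versions and the choice of members. Python 3.11.15, pandas 2.3.3, numpy 2.4.6 and matplotlib 3.10.9 were used.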

Additional observations from a re-analysis of the deposited data

How the results depend on the processing

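All 4 called members kept their direction in every alternative that held them. For LOC112131683, at 0 in all 3 Dokana libraries, that direction was fixed in advance. LOC112131677 was a member only through its Djasinga libraries. For both, the counts of alternatives are a description and no support. LOC112131677 was called in all 19 of its alternatives (log2 6.84 to 8.02, limma adjusted p 2.6e-13 to 0.0449), and the other 3 in 18 of 19, with ranges of log2 3.00 to 3.64 for LOC112130897 and 2.80 to 3.39 for LOC112131459. No range is given for LOC112131683, whose fitted size is set by the pseudocount. With the replicate block the count was 5 of all genes, the same 4 members among them. Median-ratio scaling with the replicate block, chosen after seeing the data, left 1 call among all genes, LOC112131677, and an adjusted p of 0.0617 for the other 3 members, against a smallest one of 8.5e-08 for LOC112130897, 3.6e-06 for LOC112131459 and 1.1e-09 for LOC112131683. Where the accession version had to match, 0 of 1400 genes and 0 of 171 members were called, none of the 4 being among them. The count over all genes was 10 with a pseudocount of 0.1, 9 with a mean of at least 5 TPM and 7 with snRNA and snoRNA genes alone, of which 5 were members. Leaving out single libraries gave 7 to 23 calls over all genes and 4 to 6 among members. Besides the 4, LOC112129310 was called in 2 of 21 settings and LOC112131141 in 1. The pathway lists gave 0 calls throughout.

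For sums, as log2 ratios of the means of Djasinga over Dokana, median-ratio scaling gave -0.16 for all members, 0.018 for 185 to 198 bases, 0.86 for 115 to 150 bases and 0.19 for 102 to 112 bases, against -0.47, -0.31, 0.53 and -0.18 as deposited. Rescaling without snRNA, snoRNA and the most abundant transcript gave -0.049, 0.81 and 0.12 for these 3 classes. Without Dokana replicate 3 the class of 102 to 112 bases stood at 0.040. The ranges on leaving out single libraries were -0.59 to -0.33 for all members, -0.71 to -0.39 for 161 to 167 bases, -0.40 to -0.16 for 185 to 198, 0.42 to 0.63 for 115 to 150, -0.34 to 0.04 for 102 to 112 and -1.08 to -0.63 for 60 to 65 bases. The signs of the 185-to-198 and 102-to-112-base sums thus rest on the scaling, and the cause was not tested. Depth is unknown, and 80 of the 128 members of lengths with a step averaged under 5 steps. What change could be detected at that level was not tested.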
